A study of Saccharomyces cerevisiae with 18 samples.

Results

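The genes described here encode the proteins of the cytosolic ribosome of *Saccharomyces cerevisiae*. They were found by their platform gene symbols, which start with RPL, RPS or RPP and a digit and end in a digit or a copy letter. A gene with several probe sets was represented by the probe set without the suffix that marks shared probes, where it had one. This gave 128 of the 5425 *S. cerevisiae* genes on the array, 70 of the large subunit, 52 of the small subunit, 5 of the stalk and *RPP1*, which the symbol rule takes in although its product belongs to ribonuclease P and not to the ribosome. All 128 were tested and lay above background on all 18 arrays. For 9 of them the array had only a probe set that may also detect other genes, 6 of the large subunit (*RPL41A*, *RPL35A*, *RPL42B*, *RPL7A*, *RPL4A* and *RPL1B*) and 3 of the small subunit (*RPS30A*, *RPS6B* and *RPS4B*). Their partners in several pairs were not analysed here.

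A eukaryotic ribosome has a small subunit, which reads the mRNA, and a large subunit, which forms the peptide bond and holds the exit tunnel. The acidic P proteins form a stalk on the large subunit that recruits the translation factors. In budding yeast many of these proteins are encoded by a pair of genes, named A and B, that arose in a whole-genome duplication. Ribosomal protein genes are transcribed at high rates in growing cells, through Rap1, Fhl1 and Ifh1, and their mRNAs are known to fall together when nutrients run low or growth slows.

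RNA had been extracted with hot phenol and hybridised to Affymetrix Yeast Genome 2.0 arrays, with 3 arrays for each of 6 groups. All strains were Sigma1278b, a background that forms wrinkled colonies when the adhesin gene *FLO11* is expressed. The strain KV473, labelled as a deletion mutant of *FLO11*, and the strain KV2668, labelled wild type, were each grown on solid and in liquid medium, whereas KV63 (labelled mutant) and KV68 (labelled wild type) were grown on solid medium only. The colonies had grown for 5 days at 30 °C on YPS, and the deposited growth protocol of the liquid samples is the same text, so that the time and phase of the liquid cultures are not given in the sources used here. A faster or slower growth of either culture and a direct effect of the surface can therefore not be told apart.

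*FLO11* itself went against the labels. It measured 13.24 ± 0.07 (log2, SD, n = 3) in liquid KV473 and 12.94 ± 0.17 on solid KV473, but 5.32 ± 0.06 and 5.11 ± 0.33 in KV2668, and it was high in KV63 (13.06 ± 0.10) and low in KV68 (4.85 ± 0.26). Strain names below therefore stand for the arrays labelled with that name, every strain difference is given by name, and no difference is called an effect of the *FLO11* deletion. KV473 and KV2668 also differed in mating-type genes: *MF(ALPHA)1*, the alpha-factor gene, measured 13.99 on solid KV473 and 6.29 on solid KV2668. Replicate 3 of KV68 correlated with replicates 1 and 2 at 0.917 and 0.909, where all other replicate pairs reached 0.993 or more, and *STE2*, the receptor gene of **a** cells, ranged from 6.33 to 10.60 among the KV68 arrays. For KV68 against KV63, the genes called and the median over all members are given with and without that array. Most other results that rest on KV68 include it. Values are log2 signals, and differences were tested with limma over 5424 probe sets, with calls at an adjusted p below 0.05, either alone or together with a log2 difference over 1 (the fold threshold). The level of a probe set depends on its probes, so levels are compared between arrays and not between genes.

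The 127 ribosomal genes were among the brightest probe sets of the array. Their mean log2 signals ran from 8.78 for *RPL41A*, which encodes the shortest ribosomal protein and has only a shared probe set, to 14.06, with a median of 13.24. Their median percentile among all tested probe sets was 95.9, and 115 of the 127 were in the top 10 percent. On every array the small-subunit mean exceeded the large-subunit mean, by 0.0907 to 0.161, an offset that also holds the probes' affinities.

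The mean of each class of ribosomal genes was lower on all 12 solid arrays than on all 6 liquid arrays. The large-subunit mean was 13.42 ± 0.06 (SD, n = 3) in liquid KV473, 13.38 ± 0.02 in liquid KV2668, 12.78 ± 0.10 on solid KV473, 12.85 ± 0.01 on solid KV2668, 12.82 ± 0.03 on KV63 and 12.76 ± 0.01 on KV68. The small-subunit mean was 13.54 ± 0.05 and 13.54 ± 0.01 in liquid KV473 and KV2668, and 12.89 ± 0.11, 12.99 ± 0.04, 12.94 ± 0.03 and 12.88 ± 0.02 on solid KV473, KV2668, KV63 and KV68. Liquid and solid arrays did not overlap in either subunit, and on solid medium the arrays of KV473 spanned those of KV68 and overlapped those of KV63 and KV2668. The large-subunit means of KV68 (12.75 to 12.77) lay below every array of KV63 and KV2668. The lowest array of all was replicate 2 of solid KV473, with a large-subunit mean of 12.67 and a small-subunit mean of 12.76.

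**Figure D1:**
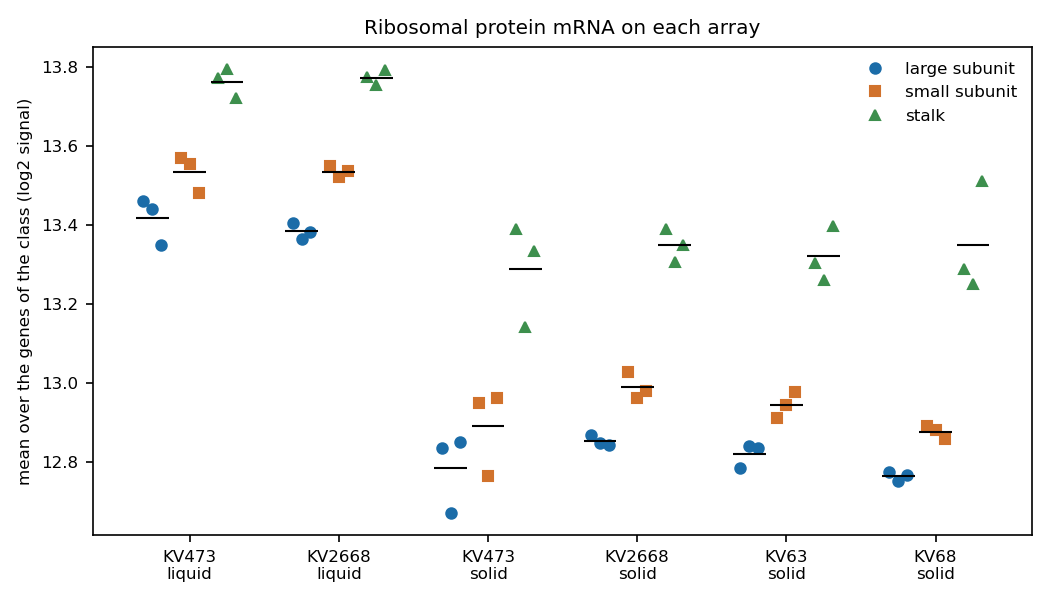
Mean log2 signal of the 70 large-subunit, 52 small-subunit and 5 stalk genes on each of the 18 arrays, by strain and medium, with a black line at the mean of each group of 3 arrays. The y axis starts above 0 because log2 signals are shown. All 6 liquid arrays lie above all 12 solid arrays in each class, and replicate 2 of solid KV473 is the lowest in each.

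In KV473 nearly the whole set was lower on solid than in liquid medium. Of the 128 genes, 126 were lower at an adjusted p below 0.05, where 49.2% of all tested probe sets were, and 0 were higher, where 32% were. Of the 126, 13 also passed the fold threshold (background 6.67%), and 0 did so in the higher direction (background 11.2%). The arrays of the 2 media did not overlap in 125 genes (background 50.1% of probe sets in that direction). The median difference was −0.61 over all members, −0.59 for the large subunit, −0.68 for the small subunit and −0.47 for the stalk, beside −0.16 over all tested probe sets. Among 408 other probe sets in the top 10 percent by signal the median was −0.02. In bulk RNA a signal is relative to the rest of the RNA on the array, so that fewer cells with a high level and less RNA in each cell cannot be told apart. Without replicate 2 of solid KV473, the lowest array, 7 genes passed the fold threshold.

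KV2668 showed nearly the same picture. Lower on solid medium were 122 of the 128 genes (background 45.9%), 8 of them past the fold threshold (background 6.95%), and 1 gene was higher (background 34.4%), 0 of them past the fold threshold (background 10.7%). The arrays of the media did not overlap in 124 lower genes (background 47.3%) and in 2 higher ones (background 34.9%). The median was −0.54 over all members, −0.53 for the large subunit, −0.58 for the small subunit and −0.45 for the stalk, beside −0.10 over all tested probe sets and −0.02 over the 408 other bright ones. The groups of 3 arrays per strain are separate, so the strains can be set side by side gene by gene: 124 of 128 genes were below 0 in both, and Pearson's r across genes was 0.857 (Spearman's rho 0.897, n = 128 genes, which are not independent replicates). Without the genes of chromosome XII, r was 0.869 over 110 genes.

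**Figure D2:**
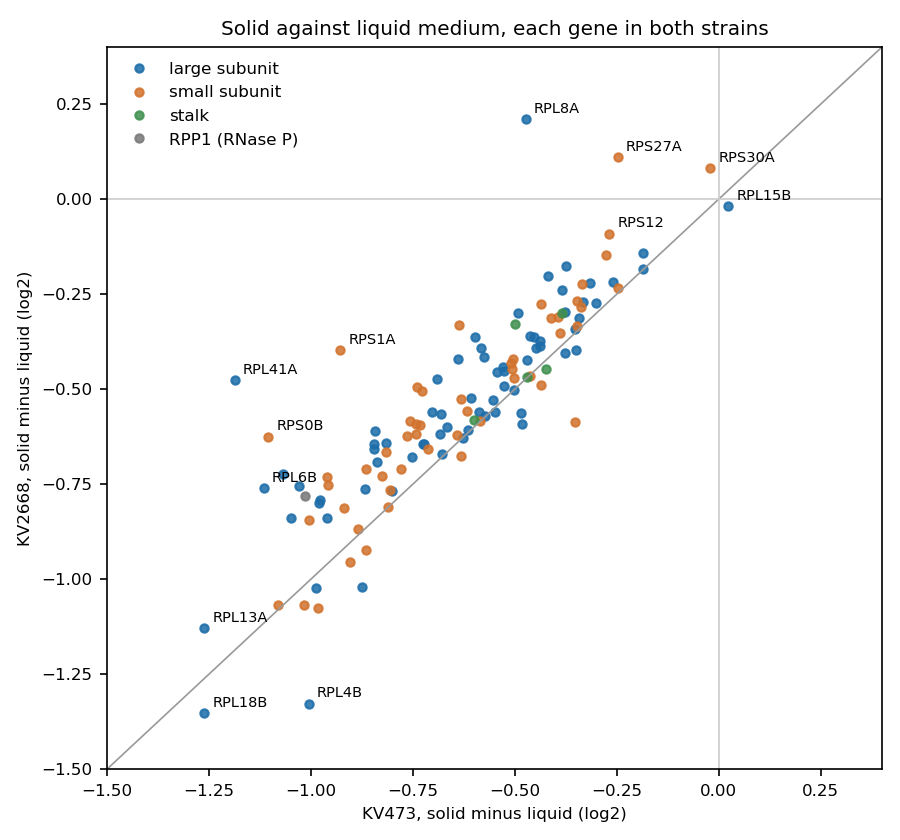
Difference between solid and liquid medium (log2) of each of the 128 genes in KV473 (x axis) and in KV2668 (y axis), coloured by class, with the diagonal of equal differences in grey. Most genes lie below 0 on both axes, and *RPL8A* stands above the others of similar x value, at −0.47 in KV473 and 0.21 in KV2668.

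The largest falls were found in both subunits. *RPL18B*, a large-subunit gene whose own probe set is unshared, measured 11.66, 11.55 and 11.36 in liquid KV473 and 10.26, 10.27 and 10.26 on solid KV473. In KV2668 it measured 11.24, 11.17 and 11.22 in liquid and 9.94, 9.82 and 9.81 on solid medium. The media did not overlap in either strain, and the signal was 2.40-fold lower on solid medium in KV473 (log2 difference −1.26, SE 0.07, adjusted p = 1.9e-09) and 2.56-fold lower in KV2668 (−1.35, SE 0.07, adjusted p = 9.71e-10).

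*RPL13A*, which encodes another large-subunit protein, measured 13.03, 12.94 and 12.83 in liquid and 11.69, 11.48 and 11.86 on solid KV473, a difference of −1.26 (SE 0.09, adjusted p = 1.45e-08). In KV2668 the difference was −1.13 (adjusted p = 4.2e-08), again without overlap. *RPS14B*, a small-subunit gene whose pre-mRNA is known to be bound by the Rps14 protein itself, measured 12.33, 12.50 and 12.51 in liquid and 11.56, 11.14 and 11.59 on solid KV473. Its difference was −1.02 in KV473 (SE 0.10) and −1.07 in KV2668 (SE 0.10), both past the fold threshold.

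*RPL4B*, for a protein that lines the exit tunnel, fell by 1.01 in KV473 and by 1.33 in KV2668, and *RPS11B* of the small subunit fell by 1.08 and by 1.07. *RPS9A*, whose product helps to keep decoding accurate, fell by 0.98 and by 1.08. Past the fold threshold in KV473 but not in KV2668 were *RPL6B* (−1.12 and −0.76), *RPL31B* (−1.07 and −0.72), *RPS0B* (−1.10 and −0.63), *RPS22B* (2.01-fold lower, and −0.84), *RPL27B* (−1.03 and −0.75) and 3 others, *RPL9A*, *RPL41A* and *RPP1*. Past it in KV2668 but not in KV473 were *RPS9A*, *RPL17B* (−0.88 in KV473 and −1.02 in KV2668) and *RPL24B* (−0.99 and −1.02). Of the 8 that passed it in KV473 only, the first 4 lie on chromosome XII, and of these 8 only *RPL6B*, *RPL31B* and *RPS0B* had an interaction of strain and medium that passed. *RPL41A* measured 10.64, 10.17 and 8.77 in liquid KV473 and 8.58, 9.03 and 8.41 on solid KV473, so that its difference of −1.19 (SE 0.33, adjusted p = 0.00446) came with overlapping arrays.

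A few ribosomal genes did not follow the rest. *RPL15B*, the B copy for a large-subunit protein, measured 10.79, 10.62 and 10.79 in liquid and 10.77, 10.67 and 10.83 on solid KV473, a difference of 0.02 (SE 0.07, adjusted p = 0.771), and one of −0.02 in KV2668 (adjusted p = 0.812). *RPS30A*, for a small-subunit protein that is made as a ubiquitin-like fusion in animals but not in yeast, had differences of −0.02 and 0.08 and also passed in neither strain. The arrays of the media overlapped for both genes, and *RPS30A* has only a shared probe set. *RPS27A* differed by −0.25 in KV473 (adjusted p = 0.00301) and by 0.11 in KV2668 (adjusted p = 0.135), and *RPS12* by −0.09 in KV2668 (adjusted p = 0.178). *RPL10*, whose protein joins the large subunit late in its assembly, passed in both strains with small differences of −0.19 and −0.14.

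The 5 stalk genes had a smaller median difference than either subunit, at −0.47 in KV473 and −0.45 in KV2668. The 64 brighter members of any class had similar medians, at −0.46 and −0.40, so a smaller fall is not particular to the stalk. *RPP0*, the base of the stalk, measured 14.10, 14.14 and 14.13 in liquid and 13.68, 13.53 and 13.65 on solid KV473, a difference of −0.50 (SE 0.06, adjusted p = 3.11e-06), and −0.33 in KV2668. The P1 and P2 genes followed: *RPP1A* with −0.38 and −0.30, *RPP1B* with −0.60 and −0.58, *RPP2A* with −0.47 and −0.47, and *RPP2B* with −0.42 and −0.45 in KV473 and KV2668. All 5 were called lower in both strains at the adjusted p alone, as were 126 and 122 of the 128 members. The shares of all tested probe sets were 49.2% and 45.9%. Past the fold threshold were 0 of the 5, beside 6.67% and 6.95% of all tested probe sets. *RPP1*, the ribonuclease P gene, measured 10.07, 9.93 and 10.07 in liquid and 9.04, 8.83 and 9.15 on solid KV473, and differed by −1.02 and −0.78.

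Of the ribosomal genes that the study itself picked out in its deletion screen, all 6 were lower on solid medium at the adjusted p alone in both strains, as were 126 and 122 of all 128 members, so that the count shows nothing particular to them. *RPL6A* differed by −0.60 in KV473 and −0.36 in KV2668, *RPL12B* by −0.80 and −0.77 and *RPL22A* by −0.69 and −0.47. *RPL34A* differed by −0.98 and −0.79, *RPL35A*, with a shared probe set only, by −0.44 and −0.39, and *RPL39*, for a small protein of the exit tunnel, by −0.35 and −0.40. None of these 6 passed the fold threshold in either strain.

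The size of the difference went with the signal of the probe set. The 64 genes with a mean signal below the members' median had a median difference of −0.81 in KV473 and −0.67 in KV2668, and the 64 brighter genes one of −0.46 and −0.40. The brightest probes are the nearest to the top of the signal range, and the part of this in the size of the differences was not tested.

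Genes that work with the ribosome were set beside its own proteins from lists chosen by role. Of 22 ribosome-bound factors and ribosomal protein chaperones, 22 were lower on solid medium in KV473 and 17 in KV2668, beside 49.2% and 45.9% of all tested probe sets, with medians of −0.70 and −0.57 and 0 higher in either. They included *ZUO1* and *SSZ1*, chaperones that receive the nascent chain (−0.93 and −0.87 in KV473), *EGD2* of the nascent polypeptide-associated complex (−0.77) and *RRB1*, the chaperone of Rpl3 (−0.95). Of 11 genes for RNA polymerase I and its initiation factors, which make the ribosomal RNA, 10 were lower in each strain, beside the same shares, with medians of −0.92 and −0.56, and *RPA43* reached −1.56 in KV473 and −0.97 in KV2668. *RRN11*, for an initiation factor subunit, was called in opposite directions, at −0.63 in KV473 and 0.45 in KV2668, and *RRN7*, for another, did not pass in KV473 (−0.18).

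Of 30 translation factors measured, 25 were lower and 3 higher in KV473, and 20 lower and 3 higher in KV2668, beside the same shares of all probe sets, with medians of −0.56 and −0.23. *TEF4*, for a subunit of elongation factor 1B, differed by −1.26 and −0.90, and *TIF4631*, for the scaffold eIF4G, by −1.17 and −0.27. The highest were *ANB1*, the form of eIF5A that is made when oxygen is scarce, at 4.41 and 4.09, and *HEF3*, a second gene for elongation factor 3, at 3.31 and 3.87, while *YEF3*, the main gene for that factor, differed by −0.43 and −0.01. *HYP2*, the eIF5A gene used in air, differed by −0.10 and −0.07 and was called in neither strain.

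The 22 regulators of ribosomal protein genes had 11 lower and 8 higher in KV473 and 9 lower and 9 higher in KV2668, shares near those of all tested probe sets (49.2% lower and 32% higher, and 45.9% and 34.4%). Their medians were −0.21 and 0.0040. Past the fold threshold 3 of the 22 were higher and 1 lower in each strain. The shares of all tested probe sets were 11.2% and 6.67% in KV473, and 10.7% and 6.95% in KV2668. The genes named next do not include a lower one past that threshold. *RAP1* and *FHL1*, which bind the promoters, differed by −0.05 and −0.17 in KV473 and by −0.12 and −0.15 in KV2668. The coactivator gene *IFH1* differed by −0.25 and 0.13, and *CRF1*, for the corepressor that competes with it, by 1.38 and 0.93. *DOT6*, a repressor of ribosome biogenesis genes, differed by 1.70 and 1.65, and *YAK1*, a kinase that restrains growth, by 1.56 and 1.46. These are values of mRNA, and the activity of the proteins was not measured.

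Between the 2 strains, by contrast, most ribosomal genes differed little. On solid medium 24 of 128 were higher in KV2668 than in KV473 (background 29.9%) and 7 lower (background 30.2%), and 0 passed the fold threshold in either direction (backgrounds 4.35% higher and 1.79% lower). The arrays did not overlap in 30 higher genes (background 30.1%) and 11 lower ones (background 32%). In liquid medium 13 were higher (background 28.6%) and 6 lower (background 24.3%), and 1, *RPL8A*, passed the fold threshold as lower (background 3.78%) and 0 as higher (background 4.5%). There the arrays did not overlap in 22 higher genes (background 35.4%) and 21 lower ones (background 30%). The member medians were 0.06 on solid and −0.02 in liquid medium, beside −0.01 and 0.02 over all tested probe sets. Without replicate 2 of solid KV473 the solid medians turned below 0 in the large subunit (0.05 to −0.014) and in the small subunit (0.06 to −0.0053).

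The higher genes were mostly those on chromosome XII, whose genes as a whole were higher on the KV2668 arrays. On solid medium 16 of the 18 ribosomal genes on that chromosome were called higher, against 8 of the 110 members elsewhere. In liquid medium the counts were 12 of 18 against 1 of 110. The 110 include *RPP1*. The median difference of the 18 was 0.47 on solid and 0.24 in liquid medium, beside 0.04 and −0.04 for the members elsewhere. Without replicate 2 of solid KV473 the solid medians were 0.40 and −0.027. The 444 other tested probe sets on chromosome XII had medians of 0.83 on solid and 0.88 in liquid medium, and the 37 of them in the top 10 percent by signal 0.37 and 0.45. Of the 444, 429 and 413 were above 0, beside 18 and 17 of the 18 ribosomal genes, so the direction is not particular to the latter. The DNA content of the strains was not measured.

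*RPS0B*, for a small-subunit protein needed to mature the 18S rRNA, had the largest strain difference on solid medium. It measured 12.55, 12.28 and 12.68 on solid KV473 and 13.36, 13.34 and 13.47 on solid KV2668, with no overlap, a difference of 0.88 (SE 0.08, adjusted p = 8.84e-07), and 0.40 in liquid medium (adjusted p = 0.000936). *RPL31B*, for a protein at the rim of the exit tunnel, differed by 0.74 and 0.40, *RPL6B* by 0.71 and 0.36 and *RPL26A* by 0.58 and 0.43. *RPS1A* differed by 0.67 on solid medium and by 0.13 in liquid medium, where it was not called. At the other end, *RPS22B* differed by 0.14 and −0.02 and *RPS30A* by 0.19 and 0.09, and neither was called in either medium. The remaining genes of this chromosome on solid medium were *RPS25B* at 0.59, *RPL8B* at 0.56, *RPL37A* at 0.49, *RPL38* at 0.48, *RPS28B* at 0.45, *RPL22A* at 0.42, *RPS31*, a ubiquitin fusion gene, at 0.31, *RPP0* at 0.28, *RPS29A* at 0.26, *RPL15A* at 0.17 and *RPL10* at 0.15.

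**Figure D3:**
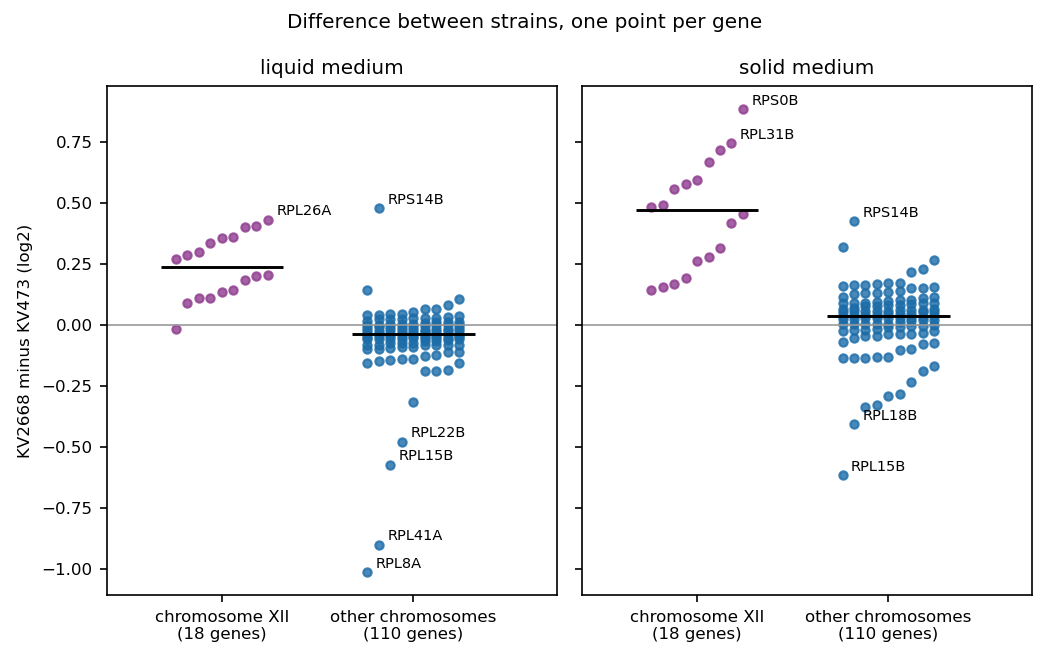
Difference between KV2668 and KV473 (log2) in liquid medium (left) and on solid medium (right), one point per gene, with a black line at the median. Shown are the 18 ribosomal genes on chromosome XII and the 110 members on other chromosomes, *RPP1* among them. The medians on chromosome XII are 0.24 and 0.47, against −0.04 and 0.04 elsewhere, and *RPL8A* lies lowest in liquid medium at −1.01.

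Outside chromosome XII a short list of genes differed between the strains in both media. *RPL15B* measured 10.77, 10.67 and 10.83 on solid KV473 and 10.14, 10.14 and 10.15 on solid KV2668, a difference of −0.61 (SE 0.07, adjusted p = 6.71e-06), and −0.57 in liquid medium (adjusted p = 1.04e-05). The strains did not overlap in either medium, and the media had differed by 0.02 and −0.02. *RPL22B* (−0.34 on solid and −0.48 in liquid medium) and *RPL18B* (−0.41 and −0.31) were also lower in KV2668 in both, and *RPS14B* was higher in both (0.43 and 0.48). The shared probe set of *RPL18B* did not show this, at 0.007 on solid and 0.063 in liquid medium. Higher on solid medium, with 0 passing in liquid medium, were also *RPL17A* (0.26), *RPL27B* (0.23), *RPL20A* (0.22), *RPL12A* (0.17), *RPS21A* (0.17) and *RPL24A* (0.17). *RPS27A* was higher on solid medium (0.32, adjusted p = 0.000835), with −0.04 in liquid medium and an interaction of 0.36 (adjusted p = 0.00537). Lower on solid medium were also *RPS24A* (−0.29), *RPL4B* (−0.28) and *RPS9A* (−0.23), and in liquid medium *RPL36A* (−0.19) and *RPL41A* (−0.90, adjusted p = 0.0346, with overlapping arrays). The shared probe set of *RPS24A* was not lower on solid medium, at 0.031. The call of *RPL41A* was lost in the fit to all 18 arrays (adjusted p = 0.0678) and without any one of 5 of the 6 liquid arrays, to an adjusted p of 0.179 without replicate 1 of liquid KV473. Without replicate 3 of liquid KV473, 12 members were lower in liquid medium.

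*RPL8A*, for a large-subunit protein needed to process the rRNA, differed most from the other members. Its probe set measured 13.54, 13.52 and 13.59 in liquid KV473 and 12.56, 12.58 and 12.48 in liquid KV2668, a 2.01-fold lower signal in KV2668 (−1.01, SE 0.07, adjusted p = 1.85e-08). On solid medium it measured 13.03, 13.05 and 13.15 in KV473 and 12.63, 12.85 and 12.77 in KV2668, a difference of −0.33 (adjusted p = 0.000754). The strains did not overlap in either medium. From liquid to solid medium it therefore fell by 0.47 in KV473 (adjusted p = 1.31e-05) and rose by 0.21 in KV2668 (adjusted p = 0.00904), the only member called higher, a call that was lost in the fit to all 18 arrays (adjusted p = 0.137). Without replicate 3 of liquid KV2668 its strain difference in liquid medium was −0.98, short of the fold threshold. Its partner *RPL8B*, on chromosome XII, ran the other way between strains, at 13.49, 13.48 and 13.43 in liquid KV473 and 13.78, 13.80 and 13.83 in liquid KV2668 (0.34, adjusted p = 8.85e-05).

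A second probe set for *RPL8A*, marked as shared, did not show this. Its strain difference was 0.10 in liquid and 0.32 on solid medium, and its difference between media in KV2668 was −0.39, in the direction of the other members. For the 20 genes with both kinds of probe set, the median gap between them was 0.0285 for the strain difference in liquid medium and 0.0658 on solid medium, and the *RPL8A* gap of 1.11 in liquid medium was the largest. In the medium comparisons the gaps were wider, with medians of 0.174 in KV473 and 0.229 in KV2668, and the shared probe set had the higher value in 13 and 16 of 20 genes. *RPL18B* differed by −0.45 and −0.51 in its shared probe set where the unshared one gave −1.26 and −1.35, and *RPS11B* by −0.34 and −0.28 where the unshared one gave −1.08 and −1.07.

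The difference between media depended on the strain for a few genes. The interaction of strain and medium was positive, meaning a smaller fall or a rise in KV2668, for 8 members at the adjusted p alone (background 24.8%) and negative for 0 (background 27%), and 0 passed the fold threshold (backgrounds 4.22% positive and 2.93% negative). They were *RPL8A* (0.68, adjusted p = 4.62e-05), *RPS27A* (0.36) and 6 genes of chromosome XII: *RPS1A* (0.53), *RPS0B* (0.48), *RPL6B* (0.36), *RPL31B* (0.35), *RPS25B* (0.31) and *RPL8B* (0.22). The median interaction was 0.18 over the 18 ribosomal genes of chromosome XII and 0.07 over the 110 members elsewhere. It was −0.04 over the 444 other probe sets of that chromosome. Without replicate 3 of liquid KV473 or of solid KV473 the positive calls numbered 15 and 14, and without replicate 2 of solid KV473 3 members were negative. Of the 22 ribosome-bound factors and chaperones, 11 had a positive and 2 a negative interaction at the adjusted p alone, beside the same backgrounds. The counts were 16 and 1 for 30 translation factors and 6 and 1 for 11 RNA polymerase I genes. For the 22 regulators they were 8 and 3.

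The A and B copies were compared within each array, so that a constant probe affinity drops out of the change. A response that varies with the signal does not drop out. The dimmer members fell more than the brighter ones, and the part of this in the changes of the pairs was not tested. Of 50 pairs, 49 had unshared probe sets for both genes. Over both strains, the differences of both copies were below 0 on solid medium in 48 of the 49 pairs. The A minus B difference nevertheless changed between media, with a 95% interval above 0 (the B copy fell more) in 21 pairs, below 0 in 10 and including 0 in 18. In KV473 the counts were 19, 10 and 20, and in KV2668 17, 11 and 21.

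The *RPS14* pair changed most. *RPS14A* measured 14.00, 14.05 and 14.06 in liquid and 13.68, 13.51 and 13.68 on solid KV473, a difference of −0.41 against the −1.02 of *RPS14B*, and the change of A minus B over both strains was 0.68 (95% interval 0.56 to 0.80). The *RPL40* pair, whose copies both encode a fusion of ubiquitin with the ribosomal protein, changed by 0.50 (0.40 to 0.60), with −0.19 for *RPL40A* and −0.69 for *RPL40B*. The *RPL31* pair changed by 0.48 (0.34 to 0.62). In the *RPL13* pair it was the A copy that fell more, by 1.20 against 0.63 for *RPL13B*, a change of −0.57 (−0.66 to −0.47). The *RPL8* pair changed by 0.40 (0.29 to 0.51), but by 0.17 in KV473 and 0.63 in KV2668.

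Between strains the pairs split by chromosome. In 13 pairs with unshared probe sets exactly 1 copy lies on chromosome XII, and the copy there was higher in KV2668 relative to its partner in 13 of 13, with an interval above 0 in 12 and a median of 0.52 over both media. The exception was *RPS22*, at 0.03 (−0.11 to 0.18). Of the 444 other probe sets on chromosome XII, 429 on solid and 413 in liquid medium were above 0, so this direction is not particular to the pairs. The largest changes of A minus B over both media were −1.11 (−1.22 to −1.01) for *RPL8*, 0.75 (0.65 to 0.85) for *RPL15*, 0.71 (0.56 to 0.87) for *RPL22* and −0.66 (−0.76 to −0.57) for *RPS0*. In *RPS0* the partner *RPS0A* differed by −0.02, whereas in the other 3 the partner outside chromosome XII differed by −0.67 (*RPL8A*), −0.59 (*RPL15B*) and −0.41 (*RPL22B*). In *RPS14*, which has no copy on chromosome XII, the change was −0.48 (−0.61 to −0.36), with *RPS14B* higher by 0.45.

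**Figure D4:**
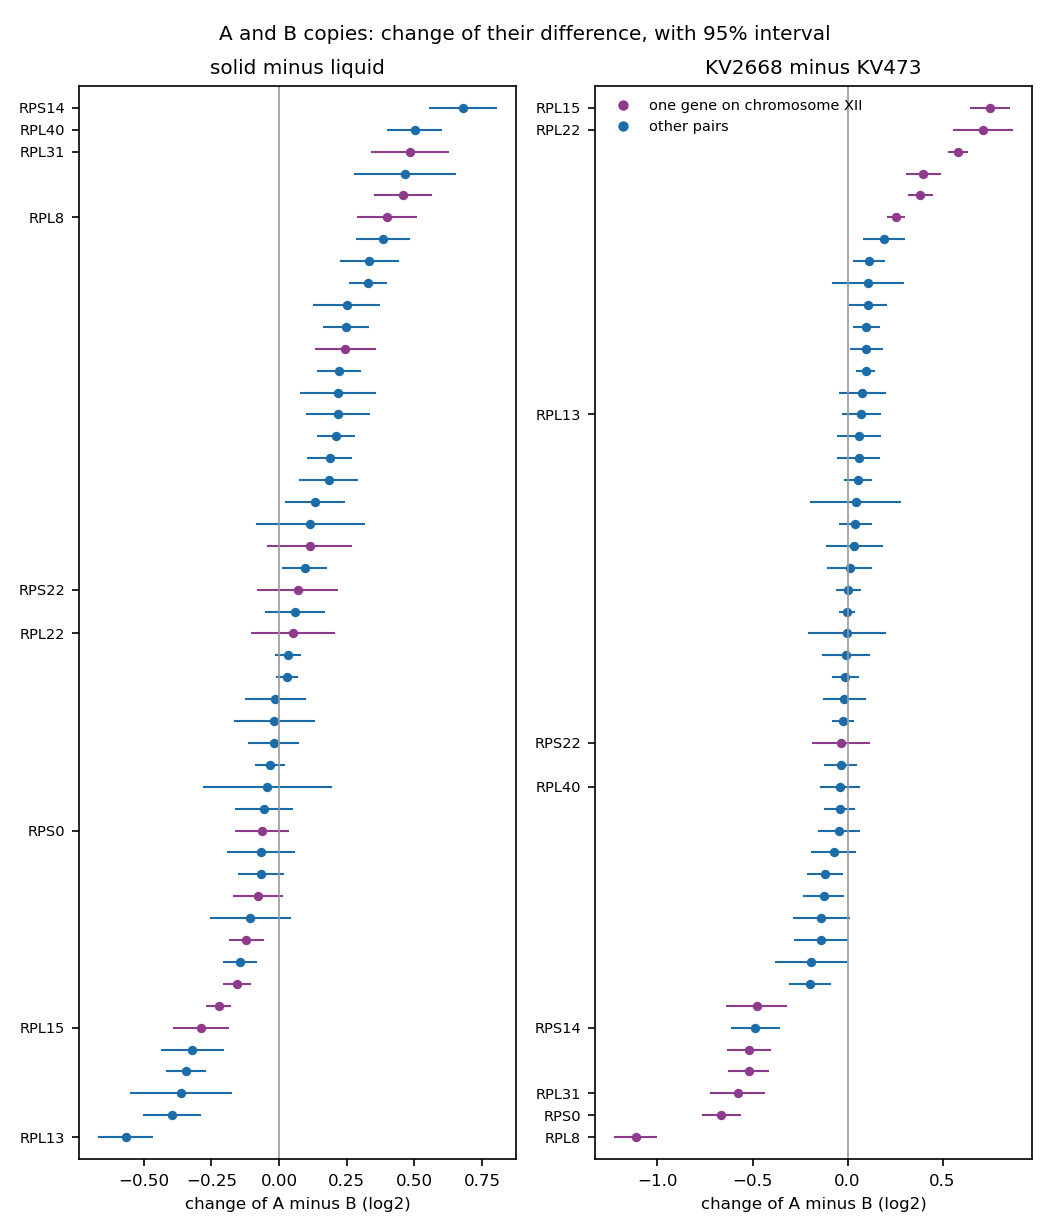
Change of the A minus B difference (log2) of 48 of the 49 gene pairs with unshared probe sets, with the names of those described in the text, between solid and liquid medium over both strains (left) and between KV2668 and KV473 over both media (right). Points are estimates and bars 95% intervals, and pairs with 1 gene on chromosome XII are in purple. The left panel spreads from −0.57 for *RPL13* to 0.68 for *RPS14*, and in the right panel the pairs far from 0 are mostly purple, down to *RPL8* at −1.11.

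KV68 and KV63, compared on solid medium only, differed in few ribosomal genes. At the adjusted p alone 2 of 128 were lower in KV68 (background 4.98%) and 0 were higher (background 5.62%), and 0 passed the fold threshold either way (background 0.221% each way). The median difference was −0.04 over all members, and 29 genes were lower and 2 higher in KV68 without overlap of the arrays (backgrounds 11.9% and 12.4%). The 2 genes called, *RPL18B* and *RPL22B*, are named here because they passed. With the replicate number as a block, *RPS14B* was called lower as well (−0.37, adjusted p = 0.0387). The count was 5 without replicate 2 of solid KV473 and 7 without replicate 1 of KV68, where *RPS9A* reached −1.08 (adjusted p = 0.0394). It was 1, with the call of *RPL22B* lost, without any one of the KV63 arrays, replicates 1 to 3 of liquid KV473 or replicate 3 of liquid KV2668, and in the fit to solid arrays alone (adjusted p = 0.117). *RPL22B* also lost its call without replicate 2 of KV68 (adjusted p = 0.0884).

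*RPL18B* measured 10.15, 10.46 and 10.23 in KV63 and 9.82, 9.90 and 9.58 in KV68, without overlap, a difference of −0.51 (SE 0.10, adjusted p = 0.00573). *RPL22B*, whose protein is known to act on the splicing of its own pre-mRNA, measured 11.64, 11.70 and 11.70 in KV63 and 11.34, 11.15 and 11.53 in KV68, a difference of −0.34 (adjusted p = 0.0381). Both genes were also lower in KV2668 than in KV473 in both media, for *RPL18B* in the unshared probe set only. The differences of these strains share no array with those of KV68 and KV63. The adjusted p of KV68 against KV63 is not separate in this way, because its spread came from all 18 arrays. The shared probe set of *RPL18B* differed by −0.028 between KV68 and KV63. Between KV2668 and KV473 it differed by 0.007 on solid and 0.063 in liquid medium. Over all 128 genes the strain differences of the 2 pairs on solid medium correlated at 0.139 (Spearman's rho 0.0598, across genes). The median was −0.03 for the 18 ribosomal genes of chromosome XII and −0.04 for the 110 members elsewhere.

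The array that stands apart changed this comparison. *RPS9A* measured 11.39 and 11.27 in replicates 1 and 2 of KV68 and 9.43 in replicate 3, beside 11.52, 11.48 and 11.28 in KV63, so that its difference of −0.73 (adjusted p = 0.177) became −0.10 without that array. *RPL8A* was also low in it, at 12.31 against 12.97 and 12.88 in the other replicates. Without replicate 3, 7 members were lower and 0 higher: *RPL18B* (−0.42, adjusted p = 0.00546) and *RPL22B* (−0.44, adjusted p = 0.00432) again, and *RPS28B* (−0.60), *RPS14B* (−0.46), *RPL14B* (−0.29), *RPP1* (−0.26) and *RPL6B* (−0.23). The median over all members was then −0.05. The share of all tested probe sets called in that fit is not given here, so the 7 are not read as particular to the members.

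**Figure D5:**
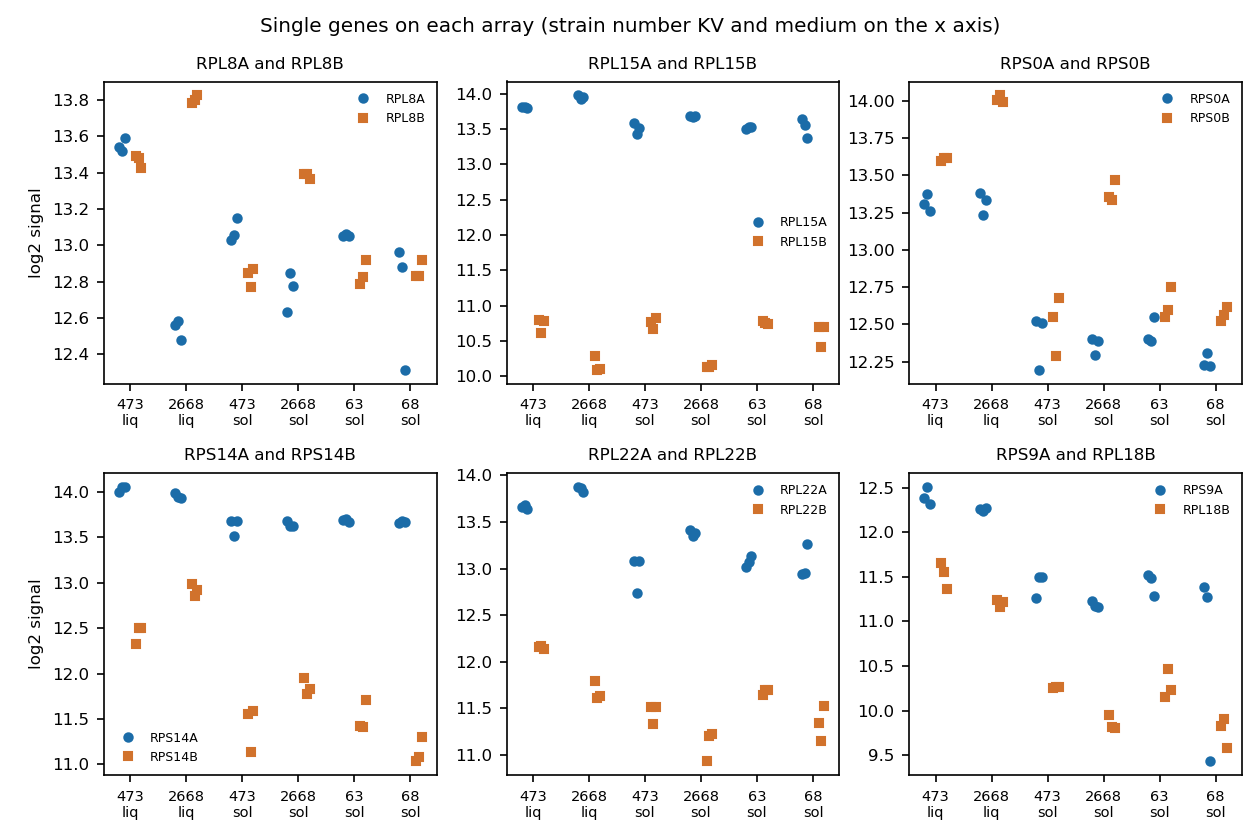
Log2 signal of 12 ribosomal genes on each of the 18 arrays, 2 genes to a panel, by strain number and medium (liq, liquid; sol, solid), 3 arrays a group. *RPL8A* is lower and *RPL8B* higher in liquid KV2668 than in liquid KV473, *RPL15B* differs by strain, *RPS0B* is higher on solid KV2668 than on the other solid arrays, and *RPS9A* is low at 9.43 in replicate 3 of KV68.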

How the data were processed

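RNA of 6 groups of yeast, 3 arrays each, was measured on 18 Affymetrix Yeast Genome 2.0 arrays. The authors deposited log2 values made with RMA, which corrects the background, quantile-normalizes the arrays and summarizes each probe set. An RMA version was not given in the sources used here. No further normalization was applied to the deposited log2 values. Of 7686 probe sets, 6145 had 1 gene symbol in the platform annotation, 1 had several and 1540 had none. The array carries probe sets of 2 yeasts, 5469 of those with 1 symbol for *S. cerevisiae* and 676 for *S. pombe*, and 12 symbols were updated through a RefSeq gene table, 0 of them of the genes described. The 5424 *S. cerevisiae* probe sets above the 95th percentile of the *S. pombe* ones (4.34 to 4.56) on at least 3 arrays were tested. All value columns matched a label, and 0 were unassigned.

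The 12 arrays of KV473 and KV2668 were fitted in 4 groups in limma 3.58.1 (R 4.3.3, functions lmFit and eBayes), with 8 residual degrees of freedom, and KV68 and KV63 in a fit of all 18 arrays (12 degrees of freedom). The Benjamini-Hochberg adjustment ran over all tested probe sets. The labels do not say that replicates were separate cultures, so p-values measure only the spread between these arrays, which may be technical. Arrays have no read depth, and their number limits the precision. The fits were tested on simulated data. A and B copies were compared by the difference within each array, with a 95% interval from its residual spread. Named are the 5 highest and 5 lowest members of each comparison, the pairs that changed most, all stalk genes, *RPP1*, genes the study named, all members on chromosome XII and, after their values were seen, members that passed between strains or passed the fold threshold, and genes of the lists. A pair that the rule names is not reported here. The members, lists and tests were chosen with earlier results of these data known.

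Replicate numbers are shared between groups. Same-numbered arrays of KV68 and KV63 deviated together (correlations 0.402, 0.270 and 0.520), and with the replicate block *RPS14B* was also lower in KV68 (−0.37, adjusted p = 0.0387). Replicate 2 of KV68 correlated better with another KV63 array than with that of its own number. No sequences were analysed here.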

Additional observations from a re-analysis of the deposited data

Results flagged for a closer look

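For 8 members the difference between solid and liquid medium was not the same in KV2668 and KV473, by limma's test of the interaction (adjusted p below 0.05). Over all tested probe sets 24.8% were called positive and 27% negative, beside 6.25% and 0% of the members. In each of the 8 the interaction was positive, meaning the signal fell less on solid medium in KV2668 than in KV473, or rose. The values were 0.68 for *RPL8A*, 0.53 for *RPS1A*, 0.48 for *RPS0B*, 0.36 for *RPS27A*, 0.36 for *RPL6B*, 0.35 for *RPL31B*, 0.31 for *RPS25B* and 0.22 for *RPL8B*. All but *RPL8A* and *RPS27A* lie on chromosome XII. *RPL8A* was the single gene of these whose difference had opposite signs in the strains with both called. Its shared probe set, at −0.39 in KV2668, did not show the rise. The call of *RPS25B* (adjusted p = 0.0284) was lost in 7 of the alternatives tried and that of *RPL8B* (adjusted p = 0.0234) in 2.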

How the results depend on the processing

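Of the values with an alternative, 711 stayed within 1.5 times the count or within the replicate spread and 43 moved, and of single genes 2552 kept their side of the threshold, 100 lost and 31 gained a call and 31 turned. With each chromosome centred, by taking from every array the median deviation of that chromosome's probe sets from their means over all arrays, 3 members of KV473 and 2 of KV2668 were lower on solid medium past the fold threshold, 1 and 2 were higher at the adjusted p alone, 19 (solid) and 23 (liquid) were lower in KV2668 than in KV473, and 2 were higher in liquid medium. This takes 1 constant from all genes of a chromosome in a comparison, so the members of chromosome XII below that constant turned by construction. On solid medium they were at −0.21 (*RPS25B*), −0.13 (*RPS1A*), −0.085 (*RPL6B*), −0.054 (*RPL31B*), −0.65 (*RPL10*), −0.63 (*RPL15A*), −0.54 (*RPS29A*), −0.52 (*RPP0*), −0.49 (*RPS31*), −0.38 (*RPL22A*), −0.34 (*RPS28B*), −0.32 (*RPL38*), −0.31 (*RPL37A*), −0.24 (*RPL8B*) and −0.22 (*RPL26A*). In liquid medium they were at −0.46 (*RPS25B*), −0.62 (*RPS1A*), −0.39 (*RPL6B*), −0.35 (*RPL31B*), −0.35 (*RPS0B*), −0.64 (*RPL10*), −0.61 (*RPL15A*), −0.55 (*RPS29A*), −0.64 (*RPP0*), −0.57 (*RPS31*), −0.55 (*RPL22A*), −0.40 (*RPS28B*), −0.48 (*RPL38*), −0.45 (*RPL37A*), −0.41 (*RPL8B*) and −0.32 (*RPL26A*).

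After quantile normalization of the *S. cerevisiae* probe sets, 8 members of KV473 passed the fold threshold, 2 of KV2668 were higher on solid medium, 0 passed the fold threshold between strains in liquid medium, 2 had a negative interaction, and the medians were −0.53 (large subunit, KV473), −0.46 (large, KV2668) and −0.51 (small, KV2668). In the fit to all 18 arrays 0 members of KV2668 were higher on solid medium and 4 were lower in KV2668 than in KV473 there. For KV68 against KV63, array weights gave 11 lower and 2 higher, and solid arrays alone 1 lower. The cause of these changes was not tested. Shares of all tested probe sets called in these alternatives, or without single arrays, are not given here. The counts of members in them therefore have no background beside them.

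Leaving out each array in turn gave 7 to 19 members past the fold threshold in KV473. In liquid medium 4 to 12 were lower between strains, 0 to 1 past the fold. The interaction was positive for 6 to 15 (0 to 1 past the fold) and negative for 0 to 3. In KV68 1 to 7 were lower, 0 to 1 past the fold. On solid medium the strain medians ran from −0.014 to 0.080 (large), −0.0053 to 0.098 (small), 0.40 to 0.52 (chromosome XII) and −0.027 to 0.064 (elsewhere), with the low ends without replicate 2 of solid KV473. The medium medians of the large subunit ran from −0.63 to −0.53 in KV473.

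With the replicate number as a block, 126 and 122 members were still lower on solid medium in KV473 and KV2668, and 25 higher and 8 lower in KV2668 on solid medium. Among the KV473 and KV2668 groups, correlations of deviations between same-numbered arrays ran from −0.0361 to 0.205. Each array correlated best with its own number between the strains on solid medium and between the media in KV2668, but not in the other 2 comparisons of these groups. A comparison of promoters and proteins was not run. The number of arrays, 3 a group, limits the precision of small differences.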
